A study of Mus musculus with 6 samples.

Results

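The clustered protocadherins are 58 genes of the mouse gene table on chromosome 18 whose symbols begin with Pcdha, Pcdhb or Pcdhg, out of 49943 genes on the assembled chromosomes. They form 3 subclusters of 14 Pcdha, 22 Pcdhb and 22 Pcdhg genes, and 57 of them are annotated as coding. Pcdhgb8 is a transcribed pseudogene. The table also lists 3 readthrough genes, Gm37013, Gm38666 and Gm38667, which run from Pcdha to the end of Pcdhg and are no members by symbol. SALL4 intervals were taken from 100 kb before the first to 100 kb after the last of these genes, at chromosome 18, 36830285 to 37941873 (GRCm38). This region held 34 of 55058 intervals in wild-type replicate 1 and 25 of 48295 in wild-type replicate 2. It held 0 of 34 and 0 of 39 intervals in knockout replicates 1 and 2.

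Clustered protocadherins are adhesion proteins of the cadherin superfamily, best known for giving individual neurons distinct cell-surface identities. Each Pcdha and Pcdhg gene has its own promoter and a large first exon that encodes the extracellular part, which is spliced to constant exons shared by the whole subcluster. Pcdhb genes are single-exon genes without a constant part. In neurons the promoters are chosen largely at random, with the insulator protein CTCF and the cohesin ring linking them to enhancers that lie between the Pcdha and Pcdhb subclusters and past the Pcdhg constant exons. The C-type genes Pcdhac1, Pcdhac2, Pcdhgc3, Pcdhgc4 and Pcdhgc5 stand last in their subclusters and are not chosen at random in this way.

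SALL4, a DNA-binding protein with zinc fingers, is abundant in embryonic stem cells. Its positions were mapped by CUT&RUN, in which an antibody guides a nuclease to release DNA fragments near its target, in mouse embryonic stem cells kept in 2i + LIF medium. The floxed line (Sall4F/F, called wild type) carries intact alleles flanked by recombination sites, and the other line (Sall4-/-) lacks the gene. Each genotype is 1 previously described line with 2 SALL4 libraries, and the labels do not say whether these came from separate cultures, so the spread between them may be technical. The 2 IgG libraries, 1 per line, were not analysed here. Peak lists carry no expression values, so the labelled cell type could not be checked against marker genes.

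Sall4 itself contained 5 intervals in each wild-type list and 0 in each knockout list. The lists give no read totals. The fragment number at each summit, its pileup, was recovered from the deposited fold enrichment and p-value for 100% of the lines of every list. The median summit rested on 9 fragments in both wild-type lists, with a lowest value of 4. In the protocadherin region the pileups ran from 4 to 37 fragments in replicate 1 and from 5 to 36 in replicate 2, with a median of 8 in each.

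The question asked first was how the number of called intervals in the region differed between the 2 lines. The region held 29.5 ± 6.36 intervals in wild type (SD, n = 2) and 0 in both knockout lists. The calls did not reach equally low in the 2 lines. The weakest summits rested on 7 and 8 fragments in knockout replicates 1 and 2, and on 4 in both wild-type lists. The median wild-type summit in the region rested on 8. Weaker knockout signal was not measured, so 0 means no call and not no signal. After adding 1 to every number, the log2 difference was 4.91, a value that depends on the added 1 because the knockout is at 0. The wild-type libraries had a spread of 0.303 on this scale (SD, n = 2), and the knockout has none because both of its libraries are at 0. Permuting the genotype labels over the 4 libraries (exact permutation test, two-sided) gave p = 0.33, the smallest value possible with 2 libraries against 2, so this test could not reach significance. The absence was not particular to the protocadherins, since both knockout lists held 0 intervals on all of chromosome 18.

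Within the region the wild-type intervals were unevenly placed. The variable arrays of the Pcdha genes and the whole Pcdhb subcluster held 0 intervals in both lists, most of the Pcdhg array was also free of them, and the intervals gathered in the last part of Pcdhg and in the neighbouring gene Diaph1. The first array, from the start of Pcdha1 to the start of the last gene Pcdhac2, spans 213.4 kb. The Pcdhb subcluster spans 256.4 kb. Diaph1 encodes a formin that assembles actin filaments, and it is not a protocadherin.

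**Figure D1:**
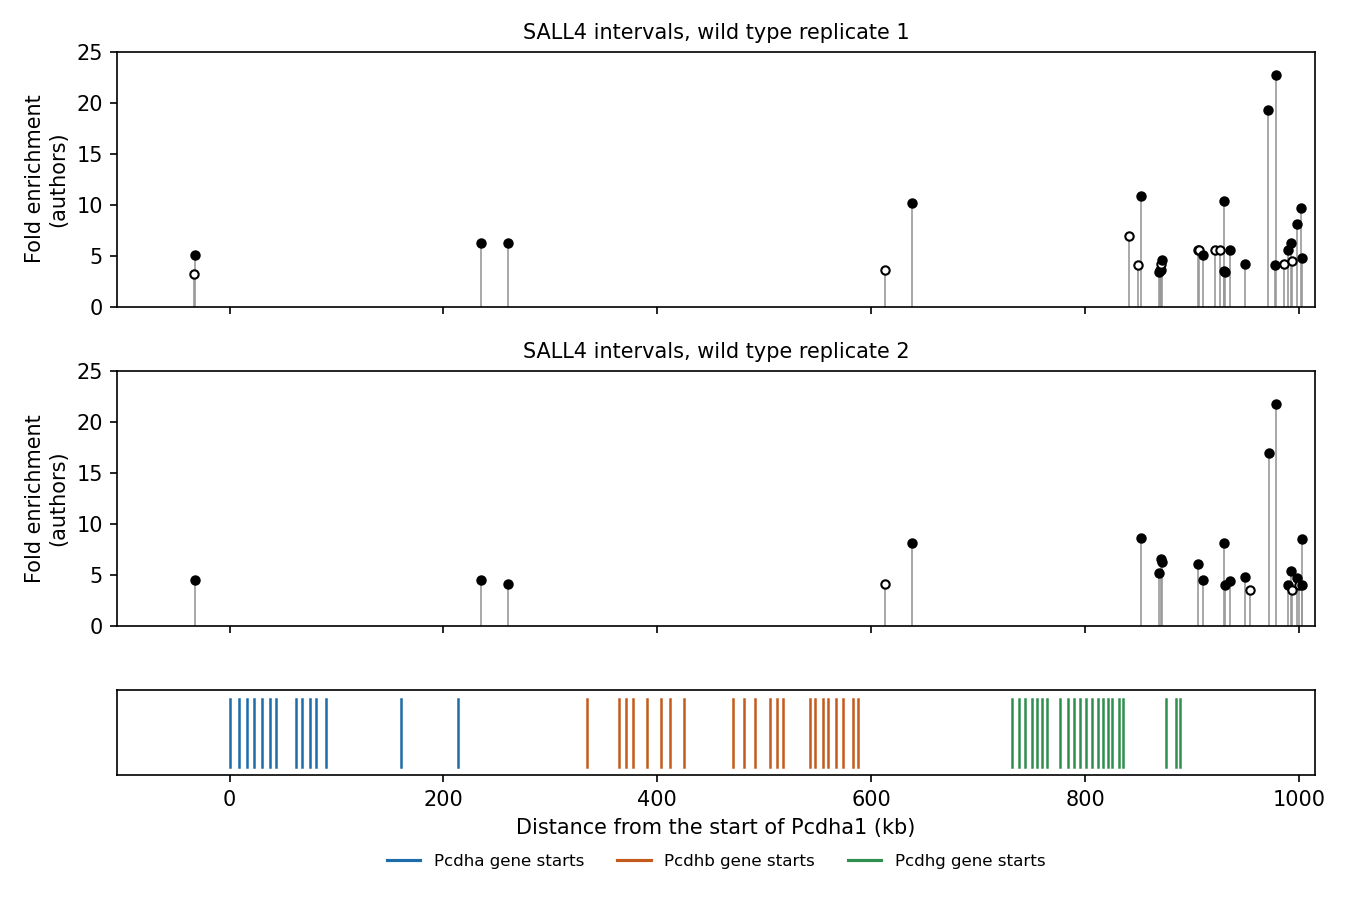
SALL4 intervals across the clustered protocadherin genes in the 2 wild-type libraries. The horizontal axis is the distance in kb from the start of Pcdha1. The vertical axis is the deposited fold enrichment. Filled points were found in both wild-type lists and open points in only 1, and the lowest strip marks the 58 gene starts by subcluster. No point lies over the blue or orange starts, and the points crowd past the last green starts, where the highest reach 22.7 and 21.8.

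The Pcdha subcluster, chromosome 18, 36930285 to 37188897, held 1 interval in each list. That is 0.387 intervals per 100 kb in both lists, with an exact 95% Poisson interval from 0.00979 to 2.15. These and all following Poisson intervals cover counting error only. On chromosome 18 as a whole the lists held 2.25 and 1.97 intervals per 100 kb. The single Pcdha interval of each list was the same site, at 37165525 to 37165754. It lay 22.0 kb after the start of Pcdhac2, within the span that all 14 Pcdha genes share. Its fold enrichment was 6.20 in replicate 1 and 4.53 in replicate 2, each on 8 fragments. Its rank was 23067 and 31313 among 37997 sites shared by both wild-type lists, which is in the weaker part of both.

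The nearest intervals were at some distance from all Pcdha starts. Pcdha1, the first gene, was 31.9 kb from the nearest interval in both lists, and that interval stands before the subcluster. The distance grew gene by gene to 121.9 kb at Pcdha12, the last of the randomly chosen Pcdha genes. It was 75.4 kb at Pcdhac1 and 21.8 kb at Pcdhac2 in replicate 2. In replicate 1 the Pcdhac2 distance was 21.9 kb. Both lists thus had the same interval-free stretch of 267.2 kb across all 14 Pcdha starts.

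In the 76.1 kb between the Pcdha and Pcdhb subclusters each list held 1 interval, again at the same site. It lay at 37190389 to 37190633, just past the last Pcdha gene end, and the only genes of the table that cover it are the 3 readthrough genes. Its fold enrichment was 6.20 in replicate 1 on 8 fragments and 4.08 in replicate 2 on 5 fragments. The site therefore rests on few fragments in both libraries.

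The Pcdhb subcluster, chromosome 18, 37264998 to 37521419, held 0 intervals in replicate 1 and 0 in replicate 2. The exact 95% Poisson upper bound for 0 is 1.44 intervals per 100 kb in each list, which is below the chromosome 18 value of either list. The difference between the stretch and the chromosome was not tested over libraries. Pcdhb8 was farthest from any interval, at 164.6 kb in replicate 1 and 164.7 kb in replicate 2. Pcdhb22, the last gene, was nearest, at 24.5 and 24.8 kb. The interval-free stretch that contains all 22 Pcdhb starts was 352.2 kb long in replicate 1 and 352.6 kb in replicate 2.

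These stretches are long, but longer ones occur elsewhere. The 352-kb stretch ranked 1232 of 54972 interval-free stretches in replicate 1 and 1315 of 48213 in replicate 2, on autosomes and X. On chromosome 18 alone it ranked 33 of 1969 and 39 of 1721. The Pcdha stretch ranked 63 and 67 on chromosome 18. The median stretch between neighbouring intervals was 9.86 kb in replicate 1 and 11.8 kb in replicate 2. Of 10225 windows of 250 kb, 15.9% held no interval in either list, as did 1 of the 5 such windows over the protocadherin region. That window held 20 coding gene starts, and of the 16 windows with at least 20 such starts 4 held no interval, this window included. The share without an interval was lower in the larger sets with genes. It was 10.6% of 6319 windows with at least 1 coding gene start and 8.93% of 347 with at least 10.

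Between the Pcdhb and Pcdhg subclusters lie 140.4 kb with the intronless carrier gene Slc25a2 and Taf7, which encodes a subunit of the general transcription factor TFIID. Each list held 2 intervals there and 0 in either gene. The stronger was shared, at 37567907 to 37568507, with fold enrichments of 10.2 in replicate 1 and 8.13 in replicate 2 on 15 and 12 fragments. It lay 49.9 kb after the start of Pcdhb22, covered in the table by the 3 readthrough genes alone. The weaker did not overlap between the lists. It lay at 37542855 to 37542953 in replicate 1 and at 37543167 to 37543351 in replicate 2.

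The Pcdhg subcluster, chromosome 18, 37661775 to 37841873, held 11 intervals in replicate 1 and 6 in replicate 2. Its density was 6.11 per 100 kb in replicate 1 (exact 95% Poisson interval 3.05 to 10.9) and 3.33 in replicate 2 (1.22 to 7.25). The interval for replicate 1 lies above the chromosome 18 value of 2.25, and that for replicate 2 includes its value of 1.97. The excess over the chromosome is therefore not resolved in both libraries. It also depended on the cut-off. With a −log10 q of at least 10, Pcdhg kept 1 of 11 and 1 of 6 intervals, while chromosome 18 kept 29.8% and 28.2%. The 2 lists shared 6 regions in the subcluster.

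Inside Pcdhg the intervals kept to the later part. From the start of Pcdhga1 to that of Pcdhga12, which is the last of the A- and B-type genes, the lists held 0 and 0 intervals. An interval-free stretch covered these 19 starts in both lists, with a length of 203.1 kb in replicate 1 and 213.8 kb in replicate 2. Between the starts of Pcdhga12 and the C-type gene Pcdhgc3, 40.8 kb held 8 and 4 intervals, of which 4 regions were shared. From the start of Pcdhgc5 to the end of the subcluster, 22.3 kb held 3 and 2 intervals with 2 shared regions. The units that begin at Pcdhgc3 and Pcdhgc4 held 0.

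The strongest region in the subcluster lay between Pcdhga12 and Pcdhgc3, at 37782198 to 37782897. Its fold enrichment was 10.8 in replicate 1 on 15 fragments and 8.67 in replicate 2 on 12 fragments. It lay 17 kb after the Pcdhga12 start. The other 3 shared regions there stood 7.33, 5.45 and 3.71 kb before the start of Pcdhgc3. Replicate 1 gave them fold enrichments of 3.41, 3.56 and 4.57, and replicate 2 gave 5.24, 6.54 and 6.25. Replicate 2 was higher at all 3, on 10, 12 and 9 fragments against 6, 6 and 8 in replicate 1. These fragment numbers are small, and the difference was not tested. Over all sites shared by the wild-type lists replicate 1 was higher at 24785 of 37997.

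The shared region at 37836202 to 37836476 lay 16.8 kb after the start of Pcdhgc5, within the span common to all 22 Pcdhg genes, where the constant exons lie. Its fold enrichments were 5.51 and 6.12 on 7 and 8 fragments in replicates 1 and 2. The last region of the subcluster, at 37840779 to 37840953, had fold enrichments of 5.08 and 4.53 on 9 and 8 fragments. The gene table holds no exons, so whether either lies in an exon was not determined.

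Gene starts were then examined together. The 58 genes are read from lower to higher coordinates as background knowledge, so the lower coordinate was taken as the start for them and, because the table has no strand, for all genes. No member had a shared region within 1 kb of its start, 0 of 58, against 4.54% of all genes and 4.77% of coding genes. At the rate of all genes 58 genes would hold 2.63, so the count is not far from the background, and the genes share 1 locus and are not independent. Widening the distance to 3 kb, or taking the intervals of either list alone, also gave 0 of 58. The gene nearest to a shared region was Pcdhgc3, 3.63 kb from it. The median distance from start to shared region was 72.3 kb for Pcdha, 113.5 kb for Pcdhb and 53.9 kb for Pcdhg. The median over 21631 coding genes was 32.6 kb, and 17.3% of them were at least as far away as the Pcdhb median.

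**Figure D2:**
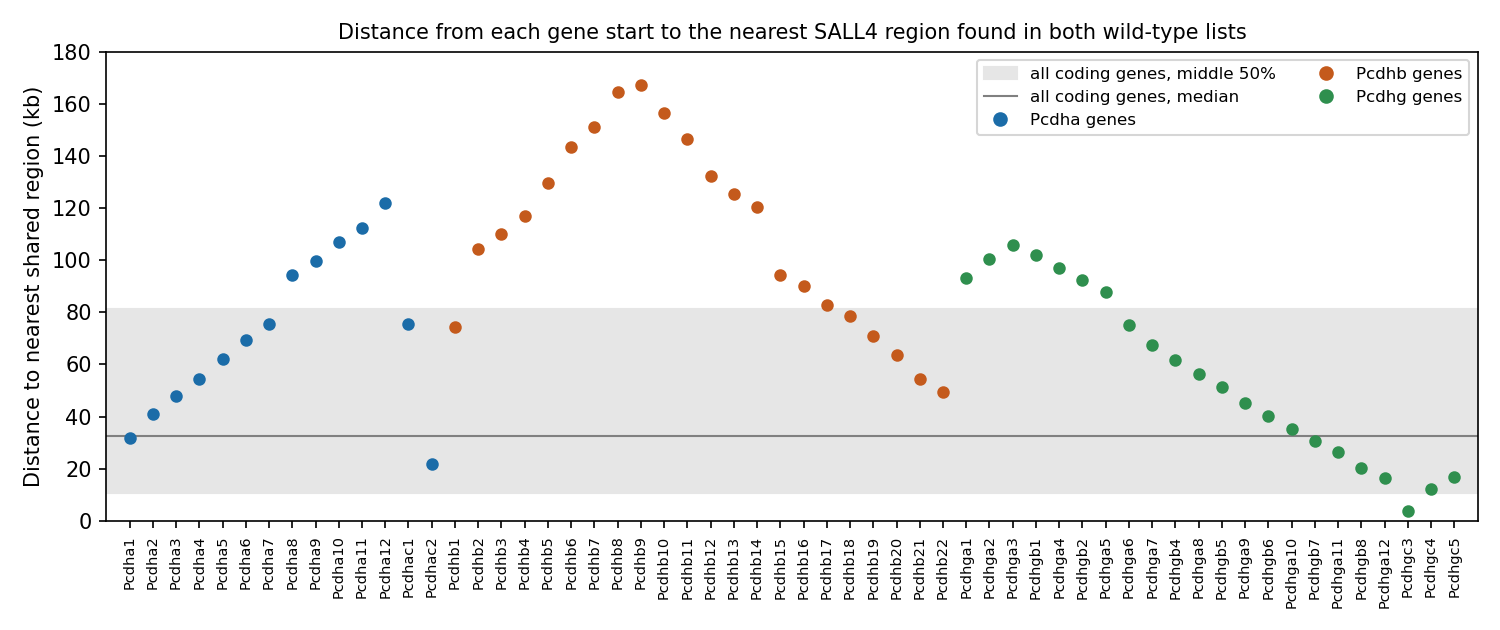
Distance in kb (vertical axis) from the start of each of the 58 genes, in chromosome order (horizontal axis), to the nearest region found in both wild-type lists. The grey band spans the middle 50% of 21631 coding genes and the line their median of 32.6 kb. Distances climb to 121.9 kb at Pcdha12 and 167.1 kb at Pcdhb9 and fall to 3.63 kb at Pcdhgc3.

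Of the 58 starts, 55 lay in an interval-free stretch of 200 kb or more in both lists, a length chosen after the stretches were seen. The Pcdhg stretch, at 203.1 kb in replicate 1, only just passes it. These were all 14 Pcdha, all 22 Pcdhb and 19 of 22 Pcdhg starts. The exceptions were the C-type genes Pcdhgc3, Pcdhgc4 and Pcdhgc5. Among 21631 coding genes 28.4% had their lower end in such a stretch. The 55 genes fall into 3 stretches, so they represent 3 observations rather than 55.

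Counting by whole gene gives another picture, because the Pcdha and Pcdhg genes overlap one another. A shared region lay somewhere inside 36 of 58 genes, against 17.5% of all genes and 27.9% of coding genes. The count is set by the shared spans and is not read against these shares. These were all 14 Pcdha and all 22 Pcdhg genes, and 0 of 22 Pcdhb genes. Only 7 regions stood behind this count, 1 in Pcdha and 6 in Pcdhg. When the sequence was divided at each start, so that every gene held only what lies up to the next start of its subcluster, 55 of 58 units had no interval in either list. The units are short, with a median of 7.02 kb, and 87.6% of windows of that length on autosomes and X had no interval either, so the count is near the background. The units with intervals began at Pcdhac2, Pcdhga12 and Pcdhgc5, and they are among the 8 longest, which run from 22.3 to 69.9 kb. The other 5 of these 8 held 0 intervals.

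The flanks differed from each other. The 100 kb before Pcdha1 held 2 intervals in replicate 1 and 1 in replicate 2, with 1 shared region at 36897904 to 36898357. Its fold enrichments were 5.08 and 4.53. The 100 kb after Pcdhg held 17 and 14 intervals, with Poisson intervals of 9.90 to 27.2 and 7.65 to 23.5 per 100 kb. Both lie above the chromosome 18 values of 2.25 and 1.97 and do not meet the intervals of the Pcdha and Pcdhb subclusters in either list. Of 25576 windows of 100 kb on autosomes and X, 0.79% held at least 17 intervals in replicate 1 and at least 14 in replicate 2. The density depends on the width taken. It averaged 15.5 per 100 kb with 100 kb and 7.75 with 200 kb, since the next interval after this group lay 113.1 kb away in replicate 1 and 220.0 kb away in replicate 2.

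**Figure D3:**
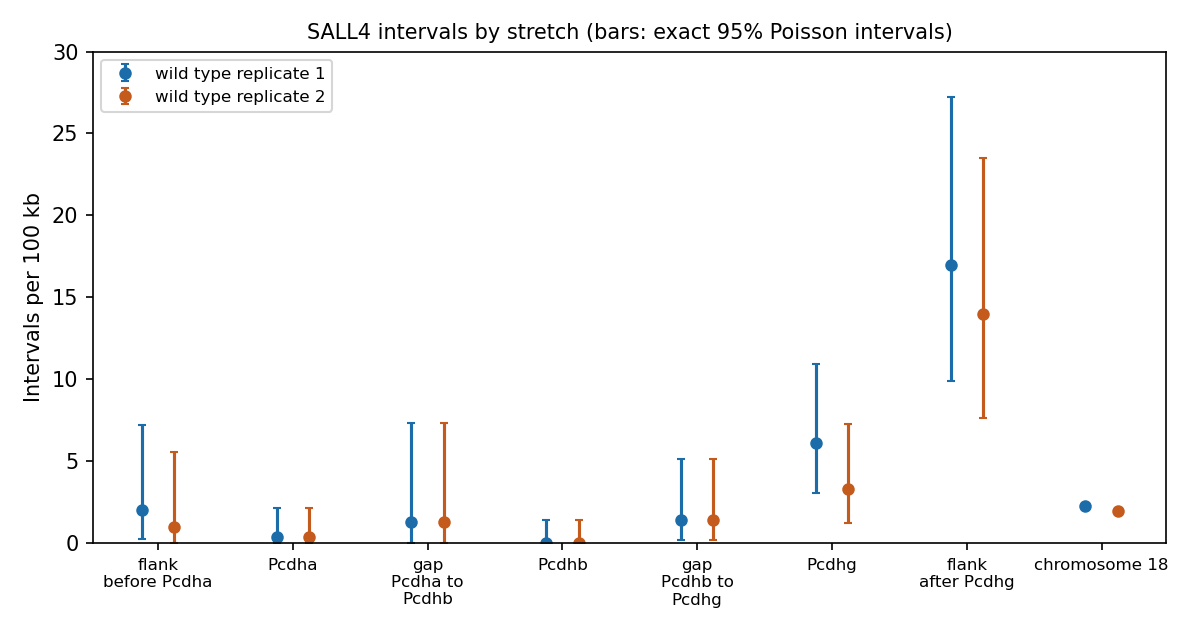
SALL4 intervals per 100 kb (vertical axis) in the 7 stretches of the region and on chromosome 18 (horizontal axis). Points are the 2 wild-type libraries and bars are exact 95% Poisson intervals. The flank after Pcdhg stands at 17 and 14, and Pcdhb at 0 in both.

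All 11 shared regions of the flank after Pcdhg lay inside Diaph1, chromosome 18, 37843601 to 37935622. The gene held 17 intervals in replicate 1 and 14 in replicate 2 over 92.0 kb. Its 12 shared regions per 100 kb compare with a median of 1.2 over 4941 coding genes of at least 50 kb, of which 2.0% reached the Diaph1 value. Hdac3, which encodes a histone deacetylase of nuclear corepressor complexes and lies just past Diaph1, held 0 and 0.

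The strongest region near the protocadherins was the one at 37908250 to 37909059 in Diaph1, 89.2 kb after the start of Pcdhgc5. Its fold enrichment was 22.7 in replicate 1 on 37 fragments and 21.8 in replicate 2 on 36 fragments. The next, at 37901626 to 37902338, had fold enrichments of 19.3 and 17 on 27 and 24 fragments. Among the shared sites of the genome these ranked 1358 and 1216, and 2436 and 2741, in replicates 1 and 2. They were the only regions of the whole 1111.6 kb in which both replicates exceeded a fold enrichment of 15. At 37860058 to 37860502 the values were 10.3 and 8.16, and at 37932613 to 37933019 they were 9.64 and 8.55. The remaining 7 regions in Diaph1 had mean fold enrichments from 3.69 to 6.39. Among these, the region at 37922758 to 37923016 had values of 6.20 and 5.44, and the one at 37928494 to 37928654 had 8.11 and 4.67.

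**Figure D4:**
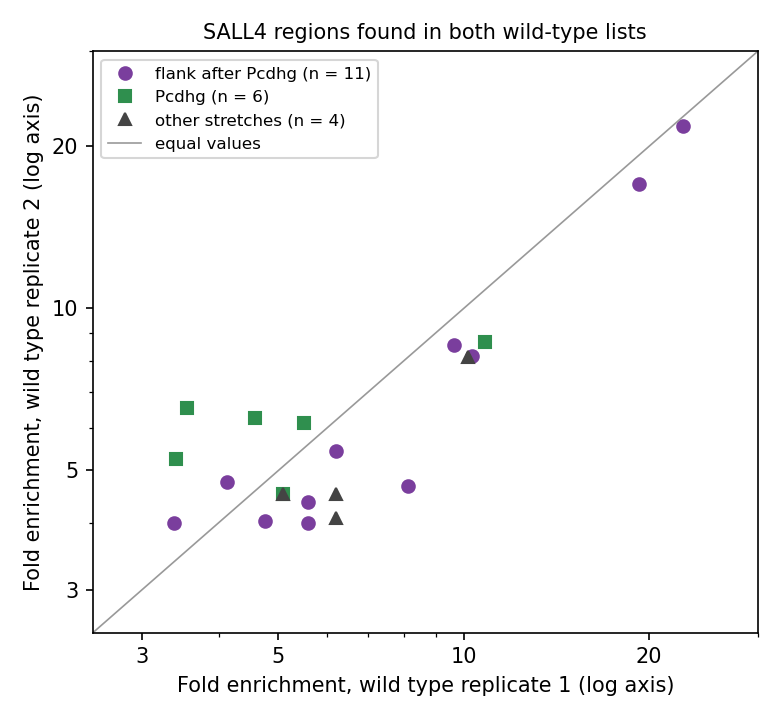
Fold enrichment of the 21 shared regions in wild-type replicate 1 (horizontal, log axis) against replicate 2 (vertical, log axis), with the line of equal values. The 2 Diaph1 regions at the upper right stand apart with 22.7 and 21.8, and 19.3 and 17. Of the 6 Pcdhg regions 2 were higher in replicate 1, against 9 of the 11 in the flank after Pcdhg.

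The strength and repeatability of the region's intervals were then set beside those of the full lists. Of the replicate 1 intervals 22 of 34 overlapped a replicate 2 interval, which is 64.7% (95% Wilson interval 47.9 to 78.5) against 70.4% of the full list. Of the replicate 2 intervals 21 of 25 overlapped, which is 84.0% (65.3 to 93.6) against 79.3%. Both full-list values lie inside these intervals. The 21 shared regions had a median fold enrichment of 5.36, with 5.59 in replicate 1 and 5.24 in replicate 2. The median over all 37997 shared regions was 6.84. Their summits in the 2 replicates lay 38 bp apart in the median, from 6 to 300 bp. Their median width was 275 bp, against 327 bp over all shared regions.

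The local background beneath these summits, recovered with the pileups, was at the lowest value of the list at 42.1% of the region's summits in replicate 1 and 30% in replicate 2. The whole lists had 43.0% and 43.4%. The highest local background in the region was 1.05 and 1.10 fragments. These values exist only at called summits, so the background inside the interval-free stretches was not measured.

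The non-clustered protocadherins, single genes of the same family that lie elsewhere, were counted with 10 kb on either side. Shared regions were present at 7 of 12, against 42.6% of coding genes. Pcdh19, which encodes an X-linked adhesion protein of neurons, had 6 shared regions, with 6 intervals in replicate 1 and 7 in replicate 2. Pcdh15, an adhesion protein of inner-ear hair cells with a gene of 1553.6 kb, had 5. Pcdh9 had 2, and Pcdh7, Pcdh11x, Pcdh12 and Pcdh18 had 1 each. Pcdh1, Pcdh8, Pcdh10, Pcdh17 and Pcdh20 had 0. Per length, Pcdh19 held 4.75 shared regions per 100 kb and the list's median was 0.189. The median over coding genes was 0, and autosomes and X together held 1.48 per 100 kb. The long genes Pcdh7, Pcdh9, Pcdh11x and Pcdh15 held only 0.156 to 0.318 per 100 kb. The share of 42.6% is not matched for gene length. None of the 12 had a shared region within 1 kb of either end, against 7.69% of all genes.

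A second list held 12 genes for proteins known to act on clustered protocadherin chromatin. Shared regions in the gene or within 10 kb were present at 9 of 12, against the same 42.6% of coding genes, again not matched for length. Within 1 kb of either end they were present at 2 of 12, Stag1 and Wapl, against 7.69% of all genes. Wapl, which encodes the cohesin release factor, had 13 shared regions, or 13.6 per 100 kb. Stag1, a cohesin subunit gene of 360.8 kb, had 15. Smchd1, a chromosomal protein that silences clustered genes, had 6. Setdb1, a histone H3 lysine methyltransferase gene, had 5, and Rad21, the cleavable cohesin subunit gene, had 4 with a best mean fold enrichment of 27.2. Stag2 had 3, the DNA methyltransferase gene Dnmt3b had 2, and Smc3 and the cohesin loader gene Nipbl had 1 each. Ctcf, Smc1a and Wiz had 0, although each wild-type list held 1 interval near Ctcf that the other did not overlap. Both knockout lists held 0 at all 24 genes of the 2 lists. All 34 and all 39 knockout intervals lay on X or Y, so 0 at the listed autosomal genes is not particular to them. Pcdh11x, Pcdh19, Smc1a and Stag2 lie on X.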

How the data were processed

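CUT&RUN libraries for SALL4 gave 4 peak lists, each called on 1 sample. Groups and replicate numbers follow the sample titles. Trim Galore 0.6.0, cutadapt 1.18, FastQC 0.11.8, BWA 0.7.17 and MACS2 2.1.1.20160309, and the builds GRCm38 and mm10, are named in the submitters' processing notes, and their settings are not given in the sources used here. For every peak the authors deposited a score, equal to 10 times its −log10 q-value cut to a whole number. They also deposited a fold enrichment, the ratio of the summit's pileup to the local background with 1 added to both, as the values show. A −log10 p-value and a −log10 q-value of each summit were deposited beside it, with its offset in bp. Fold enrichments describe peaks within a list.

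Overlapping lines of a list were merged and the highest fold enrichment kept. An interval belongs to the stretch that holds its midpoint. A shared region is the joint span of intervals from both wild-type libraries that overlap by at least 1 bp, with no knockout interval on it. Pileups were solved from this ratio and the p-value with a tolerance of 1e-04 in −log10 p, and the solver and the overlap counts were tested on simulated data. Coordinates are written from 1. Gene names and positions come from the RefSeq table of GRCm38.p6, which has neither strand nor exons. No genome sequence or mappability was used, and no sequence is shown for this chromosome. The named sites were the 10 shared regions with the best worse rank of fold enrichment, the genes of the flanks with a shared region, and the genes of 2 lists. Other sites were named after their values were seen. The ranking of interval-free stretches and its 200-kb minimum, the windows of 250 and 100 kb, the comparison of Diaph1 with genes of at least 50 kb, the division at each start with windows of the median unit length, and the count at either gene end were also chosen after seeing the data. Differences between stretches were not tested. Members and lists were chosen with earlier results of these data known. Python 3.11.15, numpy 2.4.6, scipy 1.17.1 and matplotlib 3.10.9 were used.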

Additional observations from a re-analysis of the deposited data

How the results depend on the processing

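Both knockout lists are at 0 on all of chromosome 18, so no alternative could turn the direction of the wild-type excess. Its log2 difference ran from 2.08 (fold enrichment of at least 10) to 5.89 (0.5 added to each number). It ranged from 4.70 to 5.13 with 1 library left out, and no exact test could reach significance. Pairing libraries by replicate number (a replicate block) also gave 4.91, with p = 0.5 in an exact sign-flip test, its lowest possible value for 2 pairs, and it changed no call. The pairing itself could not be checked, as both knockout values are 0.

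Interval densities fell under stricter cut-offs, which keep fewer intervals by construction. With a −log10 q of at least 10, chromosome 18 kept 29.8% and 28.2% of its intervals in replicates 1 and 2. The flank before Pcdha, Pcdha, the gap after it and Pcdhb then held 0 per 100 kb, the gap before Pcdhg 0.356, Pcdhg 0.555 and the flank after it 3.5. With a fold enrichment of at least 10 the first 4 stretches again held 0, and the others 0.356, 0.278 and 2.5. With a −log10 p of at least 8 the 7 stretches, in chromosome order, held 0, 0.193, 0.657, 0, 0.712, 1.67 and 6. At this cut-off Pcdhg kept 2 of 11 and 4 of 6 intervals, and chromosome 18 kept 51.3% and 50.7%. Flanks of 50 kb gave 3 before and 12 after the genes, and flanks of 200 kb gave 2 and 7.75. With 1 wild-type library left out, the flank after Pcdhg held 14 to 17, Pcdhg 3.33 to 6.11 and the flank before Pcdha 1 to 2, and the other stretches had equal values in both libraries.

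The share of genes with a shared region at the start was also 0 within 500 bp, within 3 kb, at a −log10 q of at least 10, in either library alone and for coding genes only. Counting either gene end, an alternative chosen after seeing the data, raised it to 37.9%, against 7.69% of all genes. All of these were the 22 Pcdhg genes, called through the single shared region at 37840779 to 37840953 near their common upper end, so they are 1 observation. The median fold enrichment of shared regions, 5.36, rose to 13.9 among regions with a −log10 q of 10 or more. Over all intervals of 1 library alone, shared or not, the median was 4.67 to 5.30. The share found in the other replicate, 74.4% on average, ranged from 65.9% to 83.3%, less than the spread between the 2 libraries. The lowest summit in the wild-type lists rested on 4 fragments, and signal below the calls was not measured.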
